A study of Mus musculus with 9 samples.

Results

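The genes described here are splicing regulators of mouse: SR proteins, heterogeneous nuclear ribonucleoproteins (hnRNPs), the paraspeckle proteins of the DBHS family, the MBNL, CELF, PTB and Quaking regulators, Tra2 and RBM proteins, and the kinases that phosphorylate SR proteins. A list of 45 gene symbols defined them, and every probe set whose annotation gave 1 of these symbols and no other was taken. This found 127 probe sets of 40 genes, out of 22626 probe sets tested and 12393 genes with a probe set of their own. Srsf7, Hnrnpa0, Hnrnpa3, Mbnl2 and Rbm10 had none and were not analysed here.

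Total RNA from RAW 264.7, a mouse macrophage cell line, was read on 9 one-colour Affymetrix expression arrays. Of these, 3 came from untreated cells, 3 from cells given lipopolysaccharide (LPS), a bacterial cell wall component, at a dose of 100 ng/ml for a period of 18 h, and 3 from cells labelled as over-expressing CstF-64 constitutively. The 3 groups share the cell line, and no array carried a control population for the CstF-64 construct, so the untreated arrays serve as the control of both other groups. The construct, whether the CstF-64 cells are 1 clone or a pool, the strain or sub-line, and whether replicates are separate cultures are unstated in the labels. The p-values therefore reflect the scatter of these arrays alone, and that scatter may be technical.

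SR proteins carry RNA recognition motifs and a tail rich in arginine and serine, bind exonic enhancers and as a rule promote the use of nearby splice sites. Many hnRNPs bind silencer elements and oppose them, so the balance of both families helps to decide which exons enter an mRNA. SRPK kinases in the cytoplasm and CLK kinases in the nucleus phosphorylate the arginine-serine tail and so control where SR proteins reside and whether they are active. CstF-64, the product of Cstf2, belongs to the cleavage stimulation factor, which binds downstream of poly(A) sites and takes part in forming mRNA 3' ends.

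The deposited intensities had been scaled to a common level, with 2%-trimmed means between 150.05 and 150.06 on all arrays. Array medians were 42.75 to 49.3 after LPS and 51.1 to 54.2 on the other arrays. LPS array 1 and CstF-64 array 1 stood farthest from their own groups, with mean correlations to the other arrays of the group of 0.966 and 0.975, where the rest had 0.977 to 0.985. The 3'/5' signal ratio of actin, a measure of RNA quality, lay between 1.03 and 1.22. A background limit of 31.2 was taken from the highest value of 27 Bacillus control probe sets, whose median was 2.2. The brightest probe set of 39 of the 40 genes exceeded this limit on all 9 arrays, and that of Pspc1 did not. Of the macrophage markers, 9 to 10 of 10 were above the limit on each array, against 0 to 2 of 8 lymphocyte, 1 to 3 of 7 granulocyte and 2 to 4 of 10 fibroblast and endothelial markers. All 10 listed LPS response genes rose after LPS, against 6.67% of all named genes, by a median log2 change of 4.88. Some differed widely between LPS arrays 1, 2 and 3: Il6 read 809.9, 42.8 and 59.4, and Nos2 1069.9, 143.5 and 182.0. Others were alike on them, such as Irf7 with 2459.2, 2385.3 and 2592.5.

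Cstf2 itself read 397.8, 363.1 and 372.2 on the untreated arrays, 220.5, 248.1 and 195.9 after LPS and 317.9, 361.5 and 394.5 on the arrays labelled CstF-64. It fell after LPS (log2 change -0.74, SE 0.13, limma adjusted p = 0.00343), while the arrays labelled CstF-64 overlapped the untreated ones (log2 change -0.08, adjusted p = 1.00). Which part of the transcript the probe set reads, and whether the construct holds it, are unstated in the sources used here, so this level checks neither the construct nor the labels.

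After LPS, 19 of the 40 splicing regulators fell, none rose, and 21 did not pass the test. The largest falls belonged to the SR protein gene Srsf2 (3.04-fold), the paraspeckle gene Sfpq (2.96-fold), the CELF gene Celf2 (2.92-fold), the muscleblind gene Mbnl1 (2.53-fold) and the SR protein gene Srsf3 (2.42-fold). Values were compared as log2(intensity + 13) in 1 limma model over all 9 arrays, two-sided, with p-values adjusted over 22626 probe sets and a threshold of 0.05, and a gene was represented by its brightest probe set. On this scale the change of a dim gene is understated. The share that fell, 47.5%, compares with 10.4% of all 12393 named genes that fell, and the share that rose, 0%, with 6.67%. The median log2 change of the 40 was -0.48, against -0.03 over all named genes, and 35 of the 40 changes were below 0, or 87.5% against 53.8%. In 27 genes every LPS array lay below every untreated array, a share of 67.5% against 20.6% of all named genes, and in 2 genes, Hnrnpdl and Clk4, every LPS array lay above, against 13.3%. At an unadjusted p below 0.05 there were 25 of the 40, where 29% of all named genes reached it. All 40 exceeded the background limit on at least 3 arrays, against 8375 of the 12393 named genes. Shares set against all named genes, here and in later paragraphs, therefore compare sets that also differ in expression level. Among probe sets above background on at least 3 arrays, the median over all named genes was -0.08. The gap between the 40 and that median was then -0.41. In total RNA of a culture, fewer cells of a kind and less RNA per cell cannot be told apart.

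**Figure D1:**
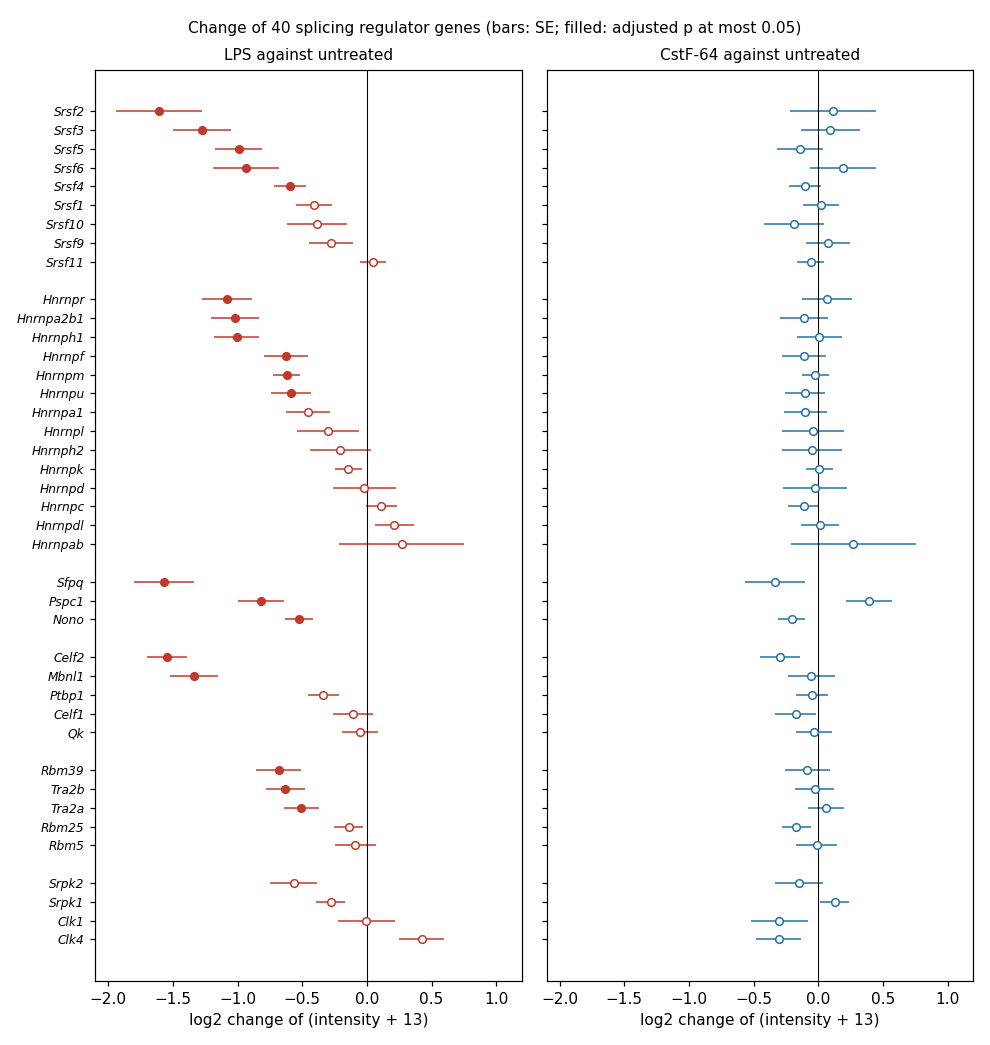
Log2 change of (intensity + 13) for the brightest probe set of each of 40 splicing regulator genes, after LPS (left) and on the arrays labelled CstF-64 (right), each against the untreated arrays. Points are fitted changes from 3 arrays per group, bars are their SE, and filled points have an adjusted p of at most 0.05: 19 are filled after LPS, all below 0, and none for CstF-64.

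The fall depended in part on the scaling of the arrays. Centring each array on its median moved the median of all named genes after LPS from -0.03 to 0.13 and that of the 40 genes from -0.48 to -0.33, and 12 genes then fell in place of 19. This centring shifts all genes alike, so the gap of -0.46 between the members and all named genes cannot move with it. That gap was -0.36 without LPS array 1 and -0.38 with array weights. The split of all calls after LPS moved from 1341 higher and 2414 lower probe sets to 2228 higher and 1455 lower under this centring, and to 1528 and 1778 under quantile normalization. Leaving out untreated array 1 or untreated array 2 left 13 genes that fell. Across 20 alternative settings, 10 of the 19 genes fell in every one: Srsf3, Srsf4, Srsf5, Hnrnph1, Hnrnpm, Hnrnpr, Sfpq, Pspc1, Mbnl1 and Celf2.

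The upstream sequences of members with a single start in the promoter table are shown for the 3 with the largest falls after LPS, Srsf2, Sfpq and Srsf3, and for the 1 with the smallest change among those that did not pass the test, Hnrnpd. They are examples chosen by the size of the change, and counts over all member promoters are given below. Each is the 250 bases before the transcript start in RefSeq, build GRCm38.p6, read 5′ to 3′ on the gene's strand and ending at position -1. The regions are chr11:116853095-116853344 on the minus strand, chr4:127021051-127021300 on the plus strand, chr17:29032410-29032659 on the plus strand and chr5:99978939-99979188 on the minus strand. Capitals mark matches, on either strand, to the words searched for.
Srsf2: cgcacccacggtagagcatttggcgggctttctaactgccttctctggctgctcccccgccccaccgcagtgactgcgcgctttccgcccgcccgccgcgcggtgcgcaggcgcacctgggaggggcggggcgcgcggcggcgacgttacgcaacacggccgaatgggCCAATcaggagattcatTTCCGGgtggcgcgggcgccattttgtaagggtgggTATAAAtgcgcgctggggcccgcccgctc
Sfpq: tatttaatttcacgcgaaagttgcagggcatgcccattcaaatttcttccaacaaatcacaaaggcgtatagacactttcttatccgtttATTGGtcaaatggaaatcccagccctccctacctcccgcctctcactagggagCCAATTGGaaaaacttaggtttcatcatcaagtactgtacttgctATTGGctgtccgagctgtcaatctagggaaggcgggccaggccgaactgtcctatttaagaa
Srsf3: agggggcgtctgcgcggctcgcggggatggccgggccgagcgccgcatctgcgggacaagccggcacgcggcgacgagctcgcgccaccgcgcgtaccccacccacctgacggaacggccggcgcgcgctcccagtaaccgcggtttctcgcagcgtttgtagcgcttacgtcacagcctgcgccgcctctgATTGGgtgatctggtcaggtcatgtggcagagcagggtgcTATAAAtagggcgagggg
Hnrnpd: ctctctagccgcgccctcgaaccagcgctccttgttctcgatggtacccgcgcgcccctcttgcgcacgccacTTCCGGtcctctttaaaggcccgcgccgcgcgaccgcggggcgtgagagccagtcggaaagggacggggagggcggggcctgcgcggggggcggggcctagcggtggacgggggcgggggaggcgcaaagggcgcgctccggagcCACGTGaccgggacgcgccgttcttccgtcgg
The Srsf2 sequence holds a CCAAT word (bound by NF-Y) at position -82, an ETS word (CCGGAA) at -65 and a TATA box (TATAAA) at -29. Sfpq holds 4 CCAAT words and none of the others, and the pair at -107 and -104 lies on opposite strands and overlaps. Srsf3 holds a CCAAT word at -58 and a TATA box at -18, and Hnrnpd an ETS word at -177 and an E-box (CACGTG) at -32.

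Promoters were in the table for 39 of the 40 genes, 59 sequences in all, and each word was also counted in all 32851 promoters over the same 250 bases, on both strands. The E2F words TTTCCCGC, TTTCGCGC, TTTGCCGC and TTTGGCGC were in 5 of the 59 (8.47%, against 1.86% of all promoters), in 3 of 36 sequences of genes that fell after LPS and in 2 of 23 of the others. The ETS word was in 25.4% against 12% of all promoters, the CCAAT word in 44.1% against 33.8%, and the E-box in 6.78% against 6.02%. The CCAAT word was in 16 of the 36 sequences of genes that fell and in 10 of the 23 others. In the same 2 sets the ETS word was in 10 and 5, the E-box in 2 and 2 and the TATA box in 5 and 1. The palindromic NRF1 word was in 1.69% against 0.782%, the CREB word TGACGTCA in 3.39% against 1.55%, the YY1 word AAGATGGC in 3.39% against 1.56%, and the TATA box in 10.2% against 12.4%. The median GC content was 59.6% in the 59 sequences and 52.4% in all, and several of these words are rich in G and C. These counts describe letters in a window and were not tested.

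Among the SR proteins, 5 of 9 measured genes fell after LPS (Srsf2, Srsf3, Srsf4, Srsf5 and Srsf6), or 55.6% against 10.4% of all named genes. The median log2 change over the 9 was -0.59. Srsf3, which encodes one of the smallest SR proteins and couples splicing to mRNA export, read 626.4, 513.7 and 344.6 on the untreated arrays, 173.7, 205.0 and 195.3 after LPS and 671.8, 485.4 and 414.2 on the arrays labelled CstF-64. Every LPS array was below every other array, and the untreated and CstF-64 values overlapped. The mean fell from 495 ± 142 to 191 ± 16.0 (SD, n = 3 each), a log2 change of -1.28 (SE 0.23, limma adjusted p = 0.00429). Of its 6 probe sets 5 fell. The dimmest, 1416151_at, was not above background on any LPS array and was at least 1.3-fold lower there, taking the background limit as the LPS level (limma adjusted p = 0.00846).

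The SR protein gene Srsf5 read 944.8, 781.7 and 753.9 untreated, 321.6, 534.9 and 390.8 after LPS and 826.6, 688.1 and 727.5 on the CstF-64 arrays. Again the LPS arrays lay wholly below the others. Its mean fell from 827 ± 103 to 416 ± 109, a log2 change of -0.99 (SE 0.18, limma adjusted p = 0.00455). Srsf2, which acts in both constitutive and alternative splicing, had the largest fall of the 40 but also a wide spread: 1540.2, 1703.8 and 881.9 untreated against 504.5, 514.9 and 296.5 after LPS, a log2 change of -1.61 (SE 0.33, adjusted p = 0.00923). Its brightest 3 probe sets fell by 0.97 to 1.61 on the log2 scale. The dimmest, 1427816_at, read 134.2, 22.3 and 106.8 after LPS against 33.7 to 49.1 untreated, so that 1 LPS array was below and the other 2 above (log2 change 0.69, adjusted p = 0.474), and the mean over the gene's 4 probe sets did not pass the test.

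Srsf4 fell by 0.59 on the log2 scale (limma adjusted p = 0.00965) and Srsf6 by 0.94 (adjusted p = 0.0345). The Srsf6 call was lost without untreated array 1, 2 or 3 or LPS array 2 or 3 (log2 change -1.03 to -0.75, adjusted p 0.0588 to 0.118), although another probe set of the gene, 1416721_s_at, fell by 1.51 (adjusted p = 0.00286). Srsf1, the founding member of the family and a known oncoprotein, did not pass on its brightest probe set (log2 change -0.41, adjusted p = 0.0784), yet 4 of its 5 other probe sets fell, by 0.82 to 1.14. Srsf10, a splicing repressor when dephosphorylated, showed the same arrangement, with -0.39 on the brightest probe set (adjusted p = 0.321) and falls of 0.74 to 0.87 on the other 3. Srsf9 gave -0.28 (adjusted p = 0.327). Srsf11 read 839.3, 765.5 and 743.1 untreated and 849.1, 768.0 and 808.5 after LPS, values that overlapped (log2 change 0.05, 95% interval -0.18 to 0.28).

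**Figure D2:**
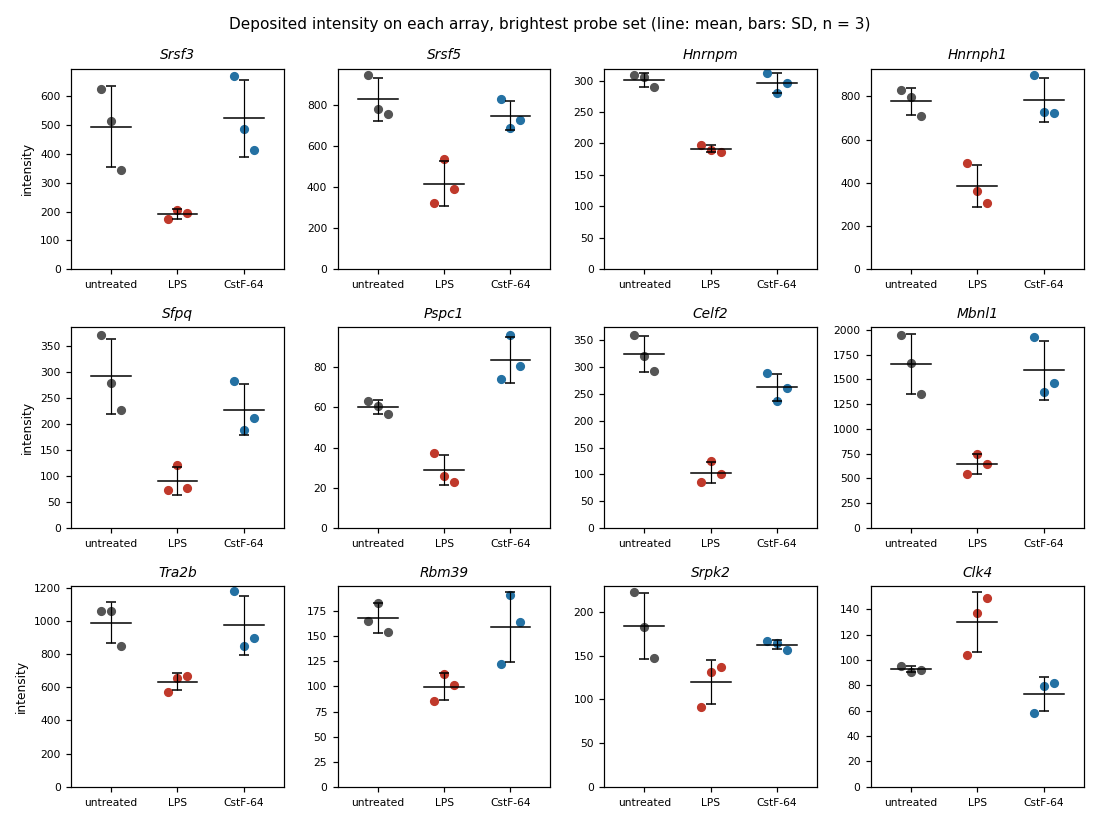
Deposited intensity on each array for the brightest probe set of Srsf3, Srsf5, Hnrnpm, Hnrnph1, Sfpq, Pspc1, Celf2, Mbnl1, Tra2b, Rbm39, Srpk2 and Clk4. Each panel is a gene with its own axis starting at 0, points are single arrays, the line is the group mean and the bars are the SD of 3 arrays. In every panel except Clk4 the LPS arrays lie wholly below the arrays of both other groups.

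Of the 14 measured hnRNP genes, 6 fell after LPS (Hnrnpm, Hnrnph1, Hnrnpr, Hnrnpa2b1, Hnrnpf and Hnrnpu), or 42.9% against 10.4% of all named genes. The median log2 change over the 14 was -0.38. Hnrnpm, whose product binds GU-rich sequence, had the smallest SE of the 40: 309.1, 305.5 and 289.0 untreated, 197.2, 189.8 and 186.7 after LPS, and 312.7, 280.2 and 296.1 on the CstF-64 arrays. The LPS arrays stood apart from both other groups, which overlapped. Its mean fell from 301 ± 10.7 to 191 ± 5.39 (SD, n = 3 each), a log2 change of -0.62 (SE 0.10, limma adjusted p = 0.00287).

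Hnrnph1 encodes a protein that binds runs of G and regulates both splicing and polyadenylation. It read 828.0, 795.4 and 707.3 untreated, 493.9, 361.4 and 305.2 after LPS and 898.9, 729.1 and 721.6 on the CstF-64 arrays, and fell by 1.01 on the log2 scale after LPS (SE 0.17, limma adjusted p = 0.00356). For its paralog Hnrnph2 the groups overlapped, with 347.6, 497.4 and 357.1 untreated, 284.5, 374.5 and 370.7 after LPS and 261.6, 424.0 and 499.2 on the CstF-64 arrays (log2 change after LPS -0.21, 95% interval -0.73 to 0.32). The difference between the paralogs was not tested. Hnrnpr fell by 1.08 (adjusted p = 0.00429), and all 3 of its probe sets fell.

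Hnrnpf, a further G-run binder, fell by 0.62 (limma adjusted p = 0.0319) and Hnrnpu, a chromatin and RNA scaffold protein, by 0.59 (adjusted p = 0.0277). With all arrays, 3 of the 4 Hnrnpf probe sets and 4 of the 5 Hnrnpu probe sets fell. Both calls on the brightest probe set were lost in several leave-one-out fits. That of Hnrnpf was lost without any 1 of untreated arrays 1, 2 and 3, LPS arrays 1 and 3 or CstF-64 array 3 (log2 change -0.69 to -0.43, adjusted p 0.0505 to 0.0965), and that of Hnrnpu without untreated array 1 or 2 or LPS array 2 or 3 (-0.63 to -0.43, adjusted p 0.0559 to 0.101). Of the 8 hnRNP genes that did not pass, Hnrnpa1, which antagonises Srsf1 at many splice sites, gave -0.46 (adjusted p = 0.101) and passed without CstF-64 array 1 (adjusted p = 0.0466). Its probe set 1436549_a_at fell by 0.96 (adjusted p = 0.00134). Hnrnpa1 has many processed pseudogenes, and its brightest probe set is of the x_at kind, which can read related sequences, so its level is uncertain. The brightest Hnrnpf probe set, 1456664_x_at, is of the same kind.

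Hnrnpk, Hnrnpd, Hnrnpc and Hnrnpl did not pass, with log2 changes after LPS of -0.14, -0.02, 0.11 and -0.30 and limma adjusted p of 0.424 to 0.975. Hnrnpab was the least precise gene of the 40: its brightest probe set read 1824.9, 993.9 and 2449.7 untreated and 3587.9, 2282.8 and 948.0 after LPS, so that arrays of 1 group differed by more than the groups did (log2 change 0.27, SE 0.48). Of its 6 other probe sets 5 fell, among them 1415914_at, with 1720.6, 1717.1 and 1656.4 untreated and 927.8, 1158.2 and 1060.9 after LPS (log2 change -0.69, adjusted p = 0.00389). Another of the 5, 1459880_at, was above background on 1 untreated array and on no LPS or CstF-64 array.

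After LPS, where 10.4% of all named genes fell, so did all 3 genes of the DBHS family. These proteins form dimers, are the core of nuclear paraspeckles and bind splicing factors and RNA polymerase II. Sfpq read 371.3, 278.8 and 228.1 untreated, 72.8, 121.6 and 77.1 after LPS and 282.7, 189.2 and 212.3 on the CstF-64 arrays. The LPS values were below all others, and the mean fell from 293 ± 72.6 to 90.5 ± 27.0 (SD, n = 3 each), a log2 change of -1.57 (SE 0.23, limma adjusted p = 0.00162). All 5 Sfpq probe sets fell, by 0.78 to 1.77. Of these, 1423796_at was not above background on any LPS array.

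Nono read 1164.9, 1031.4 and 1092.0 untreated, 795.4, 707.7 and 765.7 after LPS and 994.6, 979.6 and 871.6 on the CstF-64 arrays, so the 3 groups were apart, with LPS lowest. Its fall of 0.53 after LPS (SE 0.11, limma adjusted p = 0.00818) did not pass with median centring (adjusted p = 0.0534). Pspc1 was the dimmest of the family: 63.3, 60.9 and 56.5 untreated, 37.5, 26.0 and 23.1 after LPS and 74.2, 96.1 and 80.7 on the CstF-64 arrays. Here too the 3 groups were apart, but with the CstF-64 arrays highest, and 2 of the LPS arrays were below the background limit. The fall after LPS was 0.82 on the log2 scale (SE 0.18, adjusted p = 0.0116), and the other Pspc1 probe set did not pass (log2 change -0.39, adjusted p = 0.122).

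Of the 5 MBNL, CELF, PTB and Quaking genes, Mbnl1 and Celf2 fell after LPS (40%, against 10.4% of all named genes). Mbnl1 encodes a muscleblind protein, the regulator sequestered by expanded repeats in myotonic dystrophy. It read 1949.4, 1662.4 and 1352.2 untreated, 543.7, 742.5 and 647.8 after LPS and 1929.3, 1377.1 and 1467.3 on the CstF-64 arrays. The LPS arrays lay far below the rest, and the mean fell from 1655 ± 299 to 645 ± 99.4 (log2 change -1.34, SE 0.18, limma adjusted p = 0.00097).

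Celf2, an RNA-binding protein that opposes muscleblind at many exons, had the smallest adjusted p of the 40. It read 360.4, 320.9 and 292.9 untreated, 85.0, 124.8 and 99.9 after LPS and 288.3, 237.8 and 260.5 on the CstF-64 arrays, with all 3 groups apart. The mean fell from 325 ± 33.9 to 103 ± 20.1 (SD, n = 3 each), a log2 change of -1.55 (SE 0.15, limma adjusted p = 0.000134), and all 3 probe sets above background fell. Celf1, its paralog, read 470.6, 498.8 and 425.3 untreated, 336.5, 498.1 and 471.6 after LPS and 363.3, 428.4 and 441.2 on the CstF-64 arrays. Its groups overlapped, and none of its 5 probe sets passed (log2 changes -0.11 to 0.24). The 95% intervals after LPS were -0.46 to 0.24 for Celf1 and -1.89 to -1.21 for Celf2. Ptbp1, the polypyrimidine tract binding protein, gave -0.34 (adjusted p = 0.0947) and Qk, the Quaking gene, -0.05 (adjusted p = 0.856).

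Among the Tra2 and RBM proteins, 3 of 5 fell after LPS (60%, against 10.4% of all named genes). Tra2a and Tra2b encode related proteins that bind GAA-rich enhancers. Tra2a read 220.0, 195.1 and 187.3 untreated, 144.5, 143.0 and 124.8 after LPS and 188.4, 198.8 and 244.4 on the CstF-64 arrays (log2 change after LPS -0.51, SE 0.14, limma adjusted p = 0.0307). Tra2b read 1058.7, 1062.6 and 846.7 untreated, 573.2, 658.3 and 665.2 after LPS and 1178.5, 848.1 and 896.3 on the CstF-64 arrays (log2 change -0.63, SE 0.15, adjusted p = 0.0190), and both of its probe sets fell. In both genes the LPS arrays were below all others and the other groups overlapped. Neither call held in every leave-one-out fit: Tra2a lost its call without any 1 of the 3 untreated arrays, LPS arrays 2 and 3 or CstF-64 array 2 (log2 change -0.55 to -0.44, adjusted p 0.0502 to 0.102), and Tra2b without untreated array 1 or 2 or LPS array 1 (-0.58 to -0.56, adjusted p 0.0530 to 0.0759).

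Rbm39, which helps to recognise 3' splice sites and is the target of aryl sulfonamide degraders, read 165.7, 183.6 and 153.9 untreated, 85.4, 112.6 and 101.5 after LPS and 122.5, 191.5 and 164.7 on the CstF-64 arrays. The LPS arrays were again lowest (log2 change -0.68, SE 0.17, limma adjusted p = 0.0245). The call was lost without untreated array 1 or 2 or LPS array 1 or 3 (log2 change -0.70 to -0.59, adjusted p 0.0612 to 0.0955), and 4 of the 9 Rbm39 probe sets fell. Of these 4, 1456386_at was not above background on any LPS array. Rbm25 and Rbm5, both linked to apoptosis-related splicing, gave -0.14 and -0.09 (adjusted p 0.478 and 0.784).

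None of the 4 SR protein kinases passed the test after LPS on its brightest probe set, where 10.4% of all named genes fell and 6.67% rose. The median log2 change of the 4 was -0.14. Clk1 read 327.1, 331.0 and 418.1 untreated, 473.3, 315.2 and 299.2 after LPS and 210.9, 348.0 and 319.6 on the CstF-64 arrays, with overlapping groups (log2 change after LPS -0.01, 95% interval -0.50 to 0.49). Clk4 was higher on all 3 LPS arrays (103.7, 137.5 and 148.9) than on the untreated ones (95.2, 90.8 and 92.3) and lowest on the CstF-64 arrays (58.2, 79.4 and 82.1). Its log2 change after LPS was 0.42 (SE 0.17, limma adjusted p = 0.137), the highest of the 40, and passed without LPS array 1 (0.56, adjusted p = 0.0448).

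Srpk1 read 244.7, 210.1 and 225.7 untreated, 174.9, 181.3 and 197.6 after LPS and 256.8, 236.8 and 253.1 on the CstF-64 arrays. Its LPS arrays lay below the others (log2 change -0.28, SE 0.11, limma adjusted p = 0.129). Srpk2 read 222.7, 182.3 and 147.3 untreated, 91.4, 131.8 and 136.8 after LPS and 166.9, 164.3 and 156.6 on the CstF-64 arrays (log2 change -0.57, SE 0.18, adjusted p = 0.0618). Without untreated array 3 it passed (-0.71, adjusted p = 0.0442). Of its 4 probe sets, 2 fell.

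Over all 127 probe sets, 62 fell after LPS and none rose, against a background of 10.7% lower and 5.93% higher. The 62 include Hnrnpdl 1428224_at, which was not above background on any array. At least 1 probe set fell in 26 of the 40 genes. For this count and the next ones by gene, the share over all named genes was not computed. A gene with more probe sets has more chances of a call, so these counts are descriptive. Of 29 genes with 2 or more probe sets, every probe set fell in 3 (Hnrnpr, Sfpq and Tra2b), some fell in 18 and none in 8. In 7 genes a dimmer probe set fell while the brightest did not pass: Srsf1, Srsf10, Hnrnpa1, Hnrnpab, Hnrnpdl, Hnrnpk and Srpk2. Whether probe sets of 1 gene moved by different amounts was asked with limma's diffSplice F test over 4956 genes. After LPS 3 of the 29 passed (Hnrnpdl, Celf2 and Hnrnpa2b1), with 5.85% of all genes passing, and 14 of the 29 were at an unadjusted p below 0.05. For the diffSplice test the share of all 4956 genes at that unadjusted p was not computed. Such unadjusted counts therefore have no background to be judged by.

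Hnrnpdl, an AU-rich-element binding protein that regulates its own splicing, had the clearest split (adjusted p = 1.17e-06). Its brightest probe set, 1424251_a_at, read 1106.9, 1089.5 and 1175.9 untreated and 1293.7, 1242.8 and 1379.0 after LPS (log2 change 0.21, adjusted p = 0.400). Probe set 1428225_s_at was also higher on each LPS array, with 125.8, 123.7 and 125.4 untreated and 187.2, 159.4 and 150.5 after LPS (log2 change 0.37, adjusted p = 0.0899). In the opposite direction, 1420093_s_at read 152.0, 158.0 and 158.5 untreated and 52.2, 78.2 and 69.6 after LPS, a 2.14-fold fall (adjusted p = 0.00105). The groups were apart in each of the 3 probe sets, and of these the last passed on its own. The sixth, 1428224_at, was not above background on any array. The probe positions within the transcripts were not used here, so the probe sets are not tied to named isoforms.

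Hnrnpa2b1, which binds UAG motifs and sorts microRNAs into exosomes, split as well (diffSplice adjusted p = 0.0210). Its brightest probe set, 1420365_a_at, read 1330.3, 1208.5 and 1052.0 untreated, 712.4, 574.4 and 478.7 after LPS and 1391.3, 964.4 and 1001.6 on the CstF-64 arrays, a log2 change after LPS of -1.02 (SE 0.18, limma adjusted p = 0.00459). Probe set 1433829_a_at read 781.1, 883.4 and 612.6 untreated and 1042.0, 779.8 and 657.6 after LPS, with overlapping groups (log2 change 0.11, adjusted p = 0.778). Of the other 2, 1434047_x_at also overlapped (-0.06, limma adjusted p = 0.861) and 1433830_at fell (-0.50, adjusted p = 0.0352). The mean over the gene's 4 probe sets did not pass the test. The split was lost without untreated array 1, 2 or 3 or LPS array 3 (adjusted p 0.0562 to 0.118). That of Celf2 (adjusted p = 0.000305) rested on 1451155_at, which was at or below 14.9 on every array. With probe sets required above background on at least 3 arrays, Celf2 no longer passed (adjusted p = 0.242), and Srsf2 did (adjusted p = 0.0455).

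**Figure D3:**
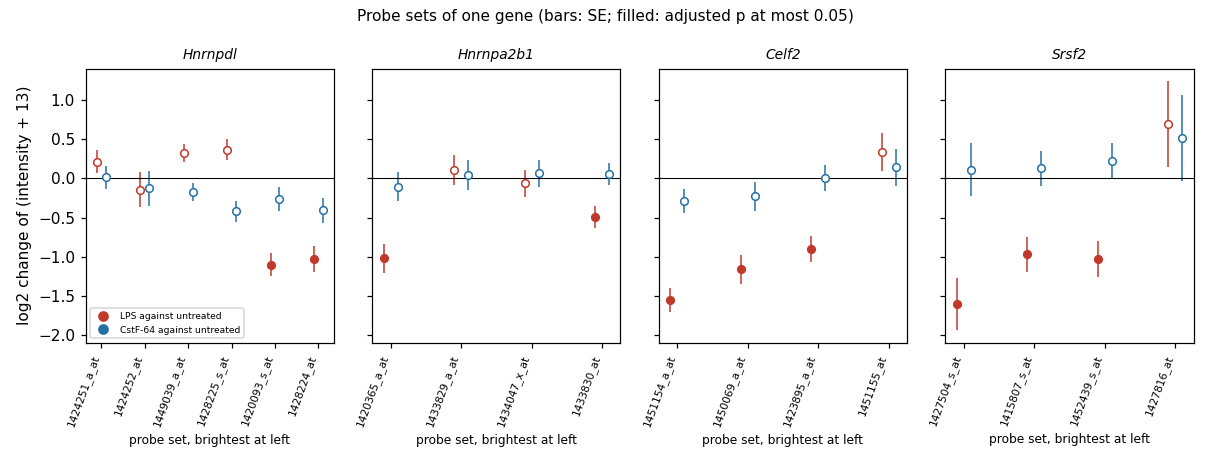
Log2 change of (intensity + 13) for each probe set of Hnrnpdl, Hnrnpa2b1 and Celf2, which passed the test of unequal probe sets after LPS with all probe sets included, and of Srsf2, which passed it with dim probe sets left out, when Celf2 did not; the brightest is at the left of each panel. Points are fitted changes from 3 arrays per group against the untreated arrays, bars are SE, and filled points have an adjusted p of at most 0.05. In Hnrnpdl the brightest probe set lies above 0 after LPS while 1420093_s_at lies below it.

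On the arrays labelled CstF-64, none of the 40 splicing regulators passed the test against the untreated arrays in either direction. None of their 127 probe sets passed, where 0.248% of all probe sets passed. At an unadjusted p below 0.05 there were 4 of the 127, and the share of all probe sets at that p is not given here. limma called 0 of 40, with 0 at an unadjusted p below 0.05, where 0.105% of all named genes were called higher and 0.169% lower and 6.84% had an unadjusted p below 0.05. The log2 changes ran from -0.34 (Sfpq) to 0.40 (Pspc1), with a median of -0.05 against 0.01 over all named genes. The smallest adjusted p was 0.781. The precision was such that the 95% interval of the change lay within 2-fold in either direction for 39 of the 40 genes, Hnrnpab being the exception, and within 1.5-fold for 30.

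The groups were apart for 4 genes. Pspc1 was higher on all 3 CstF-64 arrays (log2 change 0.40, limma adjusted p = 0.781), 1 gene of 40 against 7.41% of all named genes. Nono (-0.21, adjusted p = 0.852), Celf2 (-0.29, adjusted p = 0.854) and Clk4 (-0.31, adjusted p = 0.885) were lower on all 3, against 6.02%. Hnrnpdl probe set 1428225_s_at read 86.6, 84.4 and 99.7 on the CstF-64 arrays against 123.7 to 125.8 untreated, and this also did not pass (log2 change -0.42, adjusted p = 0.496). No gene of the 29 had unequal probe sets in this comparison, with 1 at an unadjusted p below 0.05 and 0 of 4956 genes passing in all.

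Set against the LPS arrays, the same 3 that were compared with the untreated ones, the arrays labelled CstF-64 were higher in 17 of the 40 genes and lower in 1, where 9.51% of all named genes were higher and 6.38% lower. The median log2 difference was 0.41, against 0.05 over all named genes. Srsf2 (1.72, limma adjusted p = 0.00722), Srsf3 (1.37, adjusted p = 0.00312) and Mbnl1 (1.28, adjusted p = 0.00128) were among them, and so was Pspc1 with 1.22 (adjusted p = 0.00157), from means of 28.9 ± 7.62 and 83.7 ± 11.2, although only 1 of its 3 LPS arrays was above the background limit of 31.2 and the LPS level is therefore uncertain. The kinase Srpk1 was higher (0.41, adjusted p = 0.0361), a call that was lost without any 1 of the arrays other than untreated array 1 (adjusted p up to 0.118). The gene that was lower was Clk4 (-0.73, adjusted p = 0.0195), and its call was lost without LPS array 2 or LPS array 3 (adjusted p up to 0.0745). Without LPS array 3 the count of higher genes was 11, and leaving out 1 array also ended the calls of Srsf4, Srsf6, Tra2a, Tra2b and Rbm39 (adjusted p 0.0506 to 0.168).

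In this comparison 5 of 29 genes had unequal probe sets (Hnrnpdl, Celf2, Pspc1, Hnrnpk and Srsf3), where 5.83% of all genes passed. That of Celf2 again included 1451155_at, at or below 14.9 on every array, and that of Pspc1 set a probe set with 1 of 3 LPS arrays above background against another. The Srsf3 probe sets included 1416151_at, which was not above background on any LPS array. Hnrnpdl had calls in both directions: 1428225_s_at was lower on the CstF-64 arrays than after LPS (-0.79, limma adjusted p = 0.00320), as was 1449039_a_at (-0.50, adjusted p = 0.0153), while 1420093_s_at was higher (0.84, adjusted p = 0.00522).

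The fall after LPS was not limited to the 40 genes. Of 50 measured genes on a list of other splicing regulators, 13 fell (26%, against 10.4% of all named genes) and 1 rose (2%, against 6.67%), with a median log2 change of -0.28, against -0.03 over all named genes. The falls with the smallest adjusted p were those of Ewsr1, a FET-family RNA-binding protein (255 ± 11.2 to 86.4 ± 11.9, log2 change -1.44, limma adjusted p = 0.000268), Khdrbs1, the STAR-family protein Sam68 (-1.16, adjusted p = 0.00103), Tardbp, which encodes TDP-43 (-1.11, adjusted p = 0.00148), and Zranb2, a zinc finger splicing factor (-0.76, adjusted p = 0.00355). The probe sets of Ewsr1 and Khdrbs1 are of the x_at kind, which can read related sequences. The 1 that rose, Khdrbs3, was below the background limit on all arrays.

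Of 52 measured genes of the core spliceosome, 17 fell (32.7%, against 10.4% of all named genes) and 1 rose (1.92%, against 6.67%), with a median log2 change of -0.37. Prpf8, the central protein of the catalytic core, went from 909 ± 68.2 to 447 ± 26.1 (limma adjusted p = 0.000429). The Sm protein gene Snrpd3 fell by 0.90 (adjusted p = 0.00064), the U2 snRNP gene Sf3b3 by 1.34 (adjusted p = 0.00121) and the helicase gene Dhx15 by 0.88 (adjusted p = 0.00211). Prpf38a, a splicing factor named here after its values were seen, rose by 0.46 (adjusted p = 0.0376). On the arrays labelled CstF-64, none of the genes of either list passed against the untreated arrays, with 1 of 50 and 3 of 52 at an unadjusted p below 0.05, which 6.84% of all named genes reached.

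Proliferation markers moved with the splicing regulators. All 17 measured markers of dividing cells fell after LPS, against 10.4% of all named genes, with a median log2 change of -2.36. Among them were Mki67 (-3.48, limma adjusted p = 1.31e-06) and Pcna (-0.49, adjusted p = 0.0386). None of the 17 passed on the CstF-64 arrays, where 0.105% of all named genes were called higher and 0.169% lower. The mean log2 deviation of the 40 splicing regulators from their average over the 9 arrays was 0.09 to 0.29 on the untreated arrays, -0.40 to -0.26 after LPS and 0.07 to 0.22 on the CstF-64 arrays. For the 17 proliferation markers it was 0.72 to 0.92, -1.67 to -1.31 and 0.57 to 0.91. Their part in the fall of the splicing regulators was not tested, and LPS exposure and the change in these markers cannot be told apart in this design.

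**Figure D4:**
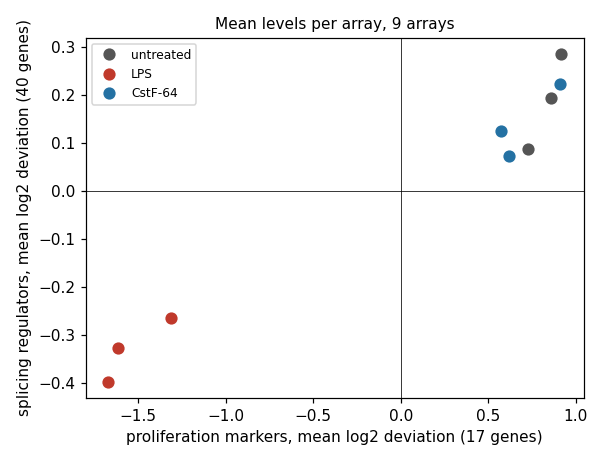
Mean log2 deviation of 40 splicing regulator genes (vertical axis) against that of 17 proliferation markers (horizontal axis) on each of 9 arrays, each gene taken relative to its mean over the arrays. The 3 LPS arrays sit at -0.40 to -0.26 for the splicing regulators, below the other arrays at 0.07 to 0.29.

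Marker levels of macrophages and of other cell types were as follows. Summed macrophage markers were 14751 to 20010 untreated, 21129 to 23386 after LPS and 15777 to 19420 on the CstF-64 arrays. Of the 10, 4 rose after LPS (Adgre1, Itgam, Fcgr1 and Cd14, by 0.81 to 2.01 on the log2 scale) and Csf1r fell by 0.70. Of all named genes, 6.67% rose and 10.4% fell. On the CstF-64 arrays none of the 10 passed against the untreated arrays. There 2 were wholly lower (Adgre1 and Itgam) and 1 wholly higher (Fcgr1), against 6.02% and 7.41% of all named genes. Adgre1 read 230.6, 209.5 and 222.8 against 416.3, 608.1 and 507.5 untreated (log2 change -1.15, limma adjusted p = 0.0777). The summed granulocyte markers were 104.1 to 114.4, 148.8 to 223.2 and 98.1 to 140.7, with 1 of 7 called higher after LPS. Lymphocyte markers summed to 92.5 to 142.8 and fibroblast and endothelial markers to 186 to 269.7 over the 9 arrays, most of them at or below background, with 0 of 8 and 1 of 10 called higher after LPS. The part of these markers in the fall of the splicing regulators was not tested.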

How the data were processed

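Linear intensities were used as the authors deposited them, in 1 table; the labels name no software, background correction or normalization. The table held 22690 probe sets, of which 64 controls were left out. Of the other 22626, 20380 were annotated with 1 gene, 691 with several and 1555 with none, and only the first kind was given a gene name. Symbols were updated to GRCm38.p6.

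The values were transformed to log2(intensity + 13), 13 being 0.25 of the median of all values (50.2), rounded. limma 3.58.1 in R 4.3.3 fitted 1 mean per group across the 9 arrays (lmFit, eBayes with an intensity trend, Benjamini-Hochberg adjustment), after the fit had been tested on simulated data. With 3 arrays per group, their number limits the precision. Per the labels, arrays carry replicate numbers. Arrays of the same number did not deviate together (correlations -0.06 to 0.16), so they were not paired.

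The members and the gene lists were chosen with earlier results of these data known. Values on every array are given for the 2 members of each class with the smallest adjusted p after LPS, the 2 with the smallest adjusted p for CstF-64, those with unequal probe sets and both genes of paralog pairs, and up to 4 genes of each further list are named by the smallest adjusted p; Srsf2, Srsf11 and Hnrnpab were added after their values were seen. Alternatives changed the normalization, the added constant, the background filter, the choice of probe set, the model and the arrays included.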

Additional observations from a re-analysis of the deposited data

How the results depend on the processing

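The counts kept within 1.5 times of their values except as follows. Of the 40 splicing regulators, the 19 that fell after LPS became 12 with median centring and 13 to 20 when 1 array was left out. The 0 that rose became 1, Clk4, with quantile normalization, with array weights, and with LPS array 1 left out (range 0 to 1 over the leave-one-out fits), and also with LPS array 1 and CstF-64 array 1 left out together, a setting chosen after seeing the data. Genes with unequal probe sets after LPS went from 3 to 5 with quantile normalization, with 50 added before the logarithm and with the replicate number as a block, and were 2 to 4 over the leave-one-out fits. In the comparison of CstF-64 with LPS arrays, the 17 higher genes became 26 when any probe set of a gene counted and 11 to 16 over the leave-one-out fits, and the 1 lower gene became 2 when any probe set counted, 0 with only the 2 groups fitted, and 0 to 1 over the leave-one-out fits. With the replicate block, 17 genes fell after LPS and 16 were higher on the CstF-64 arrays than after LPS. Against the untreated arrays, the CstF-64 arrays gave 0 calls among the 40 genes under every setting, the block included. Single genes were followed through the settings for 29 genes, many of them chosen by their small adjusted p after LPS. Cstf2 and genes of the further lists were among the 29, and several of the 40 were not. None of their called changes changed sign. Of the 29, 22 passed after LPS, and 18 did so in each fit of their brightest probe set. That choice favours stable calls, so this count does not measure the stability of the 40 genes. Of the 19 members that fell, 10 did so in every setting. For these losses the cause was not tested. Depth is not defined for arrays, and for dim genes such as Pspc1 the background limits what can be measured.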
